A study of Mus musculus with 11 samples.

Results

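R5 and R1 are the most and the least mature of 5 erythroid stages sorted from the mouse fetal liver, and their comparison spans the whole course of maturation covered by the series. Its members were the arrays whose titles give the stage R5 (2 arrays) or R1 (2 arrays), which make 4 of the 11 arrays. The other 7 arrays, of the stages R2 (3 arrays), R3 (3 arrays) and R4 (1 array), were used for the estimate of the spread and for the path between the ends. Both groups were cells of C57/Bl6 fetal livers at stage E14.5, stained for Ter119 and CD71 while fresh and sorted by flow cytometry. The labels name no mutation, treatment or transgene, and they do not give the number of embryos behind an array. Nothing in them says that the replicates came from separate litters or sorts, so the p-values rest on how far these arrays differ among themselves, and that spread may be technical in origin.

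The sort follows 2 surface markers. CD71 is the transferrin receptor, which brings in iron for heme, and Ter119 is an antigen of the red cell surface that appears as erythroblasts mature. In the cited sort scheme R1 holds the cells with little of Ter119 and R5 the cells with much Ter119 and little CD71. Erythroid precursors fill with hemoglobin, shrink and condense their nuclei, leave the cell cycle, expel the nucleus and clear their organelles while they mature. The fetal liver is their main site in mid-gestation, where they lie among hepatocytes, macrophages and other blood precursors.

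Each value is a log2 signal, that is, the base 2 logarithm of the linear signal of a probe set, a group of short oligonucleotides for 1 transcript. A difference of 1 on this scale is a doubling. The deposited arrays had been scaled to a common level (a trimmed mean of 500 on each array), so a change says how a transcript moved relative to the rest of its array, and not how many copies a cell held. The median signal was 120.4 and 107.6 on the R5 arrays, against 62.5 and 92.1 on the R1 arrays. The 100 brightest probe sets took 15.6% and 17.0% of all signal on the R5 arrays, against 8.86% and 8.33% on the R1 arrays. The R5 replicates correlated less well with each other (r = 0.86 across probe sets, which are not independent) than the R1 replicates (r = 0.93). The signal of the 3' end of the actin control stood above that of its 5' end by 0.43 and 0.44 on the R5 arrays, against 0.35 and 0.25 on the R1 arrays. For the Gapdh control this difference was 0.23 and 0.20 on the R5 arrays, against -0.01 and -0.46 on the R1 arrays. For the control of Pcx, a gene that was itself higher in R5, it was 4.62 and 2.27 on the R5 arrays, against 0.20 and 0.38 on the R1 arrays. For the transferrin receptor control the order was not the same, at 2.89 and 2.04 on the R5 arrays, against 3.37 and 2.03 on the R1 arrays. The part of RNA quality in the results was not tested.

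The erythroid genes checked were higher in R5 than in R1, which does not show that the R1 cells were all erythroid. Ptprc, a gene of leukocytes, read 12.16 and 11.58 in R5, against 12.87 and 13.56 in R1. It did not pass the test, and its other probe set had the opposite sign. Slc4a1, the anion exchanger band 3, read 16.24 and 16.84 in R5, against 8.24 and 12.12 in R1. Klf1, the erythroid Krüppel-like factor, read 14.68 and 15.43 in R5, against 11.80 and 10.82 in R1. Both genes read higher on both R5 arrays than on either R1 array, and the R5 and R1 arrays also lay apart for 61.6% of all genes. Epor, the erythropoietin receptor, read 11.47 and 12.12 in R5, against 9.27 and 9.09 in R1, and rose by 2.62 ± 0.38 (SE, adjusted p = 0.00141). Tfrc, the gene for CD71, read 15.11 and 16.13 in R5, against 12.49 and 12.39 in R1. The Tfrc transcript was thus 9.10-fold higher in R5 (log2 change 3.19 ± 0.43, SE, adjusted p = 0.000798), although R5 is sorted for low CD71 on the surface in the cited scheme. Both other Tfrc probe sets had the same sign, and 1 of them was called. The mean level was 13.95 in R2, 15.43 in R3 and 15.34 in R4.

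Of 18193 genes, 1663 were called different between R5 and R1, which is 9.14% of the genes tested. The call was an adjusted p under 0.05 in limma's moderated test, with Benjamini-Hochberg adjustment over all 45037 probe sets. Of the called genes, 1162 were higher in R5 (6.39% of genes) and 501 were lower (2.75%). Rises were the larger changes, with a median of 3.19 among called rises and of -1.87 among called falls. There were 344 rises of more than 4 on the log2 scale, which is 16-fold, and 9 falls of that size. Of the 45037 probe sets 7.68% were called, 5.33% higher and 2.35% lower in R5. The R5 and R1 arrays of all 1663 called genes lay apart without overlap, which also held for 61.6% of all genes. The median gene changed by 0.13. This median differed with brightness, at -0.52 over the 8648 genes above the array median on all 4 arrays and 1.13 over the 4893 genes below it on all 4.

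The balance of rises and falls depended on how the arrays were put on a common level. When the arrays were centred on their medians, the median gene changed by -0.46, and 829 genes were called higher in R5 and 2679 lower. The labels can be read as saying that equal replicate numbers share an extraction date, and with the number as a block the test called 1592 genes higher and 1531 lower. Of the 1162 rises, 819 stayed called with centring and 1161 with the block. All 501 falls stayed called under both.

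Single arrays also weighed on the counts. The R5 replicates differed from each other, in that the called rises were higher on replicate 2 by a median of 0.80 and the called falls lower there by a median difference of -0.72. Without R5 replicate 2 there were 419 rises and 40 falls, and without R5 replicate 1 there were 1335 rises and 2091 falls. Without R1 replicate 1 there were 516 rises and 42 falls, and without R1 replicate 2 there were 719 rises and 87 falls. Leaving out any 1 of the 11 arrays in turn left 392 of the rises called each time, and 9 of the falls. The 9 falls were Atp6v1h, Bcor, Mtif3, Naa50, Pask, Ppp4c, Rpl37, Tgds and AI467606, all named here because of this result. Below, "stable" is used of a gene that stayed called in all 11 of these fits.

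**Figure D1:**
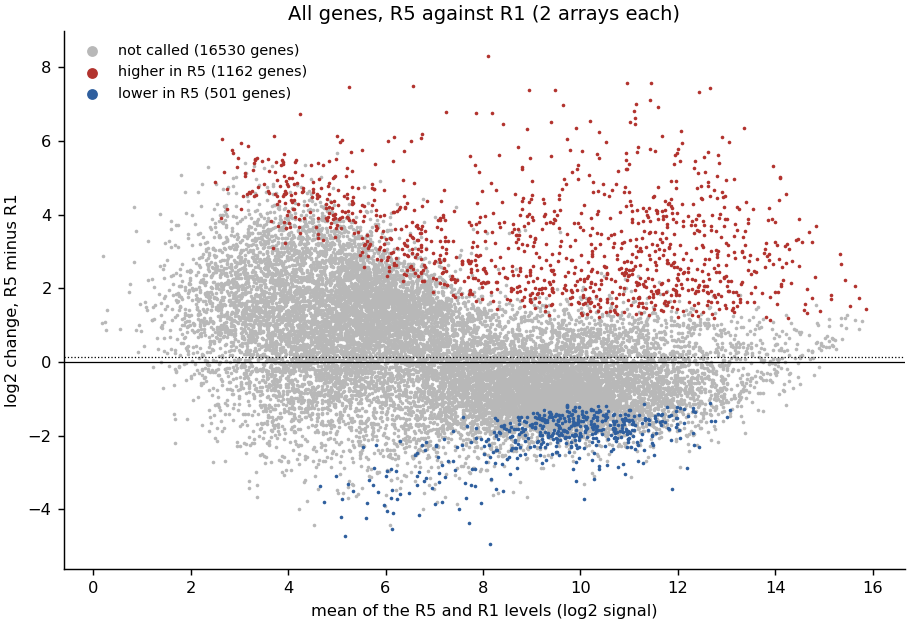
Difference between R5 and R1 of each of 18193 genes (vertical axis, log2 change, R5 minus R1) against its mean level in both stages (horizontal axis, log2 signal), 2 arrays each; the dotted line is the median change of 0.13. The 1162 called rises (red) reach far higher values than the 501 called falls (blue) reach below, and the falls lie mostly among genes of middle level.

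Several of the largest rises were of genes for red cell proteins. Fn3k, fructosamine 3-kinase, which repairs proteins that have reacted with sugars, read 11.96 and 12.55 in R5, against 1.69 and 6.20 in R1. Alas2, the erythroid enzyme of the first and rate-limiting step of heme synthesis, read 16.01 and 16.75 in R5, against 6.17 and 11.69 in R1. Trim10, a RING-finger protein of erythroid cells, read 15.69 and 16.50 in R5, against 7.18 and 10.37 in R1. For each of these genes R5 was far above both R1 arrays, and R1 replicate 2 was well above R1 replicate 1. The changes were 8.32 ± 1.08 for Fn3k (adjusted p = 0.000659), 7.45 ± 1.32 for Alas2 (adjusted p = 0.00536) and 7.32 ± 0.89 for Trim10 (adjusted p = 0.000414; errors are SE throughout). Fn3k was below the array median on both R1 arrays, where the size of a change is least certain.

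The other 9 of the 12 largest rises were Hbb-bh1, Hbb-b2, Mageb16, Runx1t1, Fhdc1, Epb42, Ccdc92b, Fam210b and Dusp8. Runx1t1, the corepressor also known as ETO, changed by 7.39 ± 0.92. Fhdc1, a formin-family protein of the cytoskeleton, changed by 7.10 ± 0.67, and Fam210b, a mitochondrial protein linked to iron use in erythroid cells, changed by 6.92 ± 0.75. Dusp8, a phosphatase that switches off MAP kinases, read 10.25 and 11.01 in R5, against 4.16 and 3.53 in R1. Like Fn3k, it was below the array median on both R1 arrays, so the size of its rise is uncertain. Of the 12 genes, 10 were stable. Alas2 lost its call without R5 replicate 2 (adjusted p = 0.0609), and Mageb16 without R5 replicate 2 or R1 replicate 1 (adjusted p up to 0.156).

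The promoters of some of these genes are given because GATA1 and KLF1 are known to switch on erythroid genes through short sequence words. The 250 bases before the start of 4 genes with large rises, each holding a GATA word, follow from RefSeq (build GRCm38.p6), written along the gene's own strand. They were chosen after the values were seen. Capitals mark matches to the GATA words (AGATAA or AGATAG, and the variants TGATAA or TGATAG that begin with another base) and to the CACCC word CCNCNCCC, where N is any base. Both strands were searched, and matches to the CACCC word may overlap each other.
Alas2, chrX:150547167-150547416, plus strand: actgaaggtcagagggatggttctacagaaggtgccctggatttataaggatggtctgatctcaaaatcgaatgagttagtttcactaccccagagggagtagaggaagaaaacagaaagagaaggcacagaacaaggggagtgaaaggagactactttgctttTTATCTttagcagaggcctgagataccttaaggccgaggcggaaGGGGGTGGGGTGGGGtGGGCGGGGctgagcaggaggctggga
Trim10, chr17:36869324-36869573, plus strand: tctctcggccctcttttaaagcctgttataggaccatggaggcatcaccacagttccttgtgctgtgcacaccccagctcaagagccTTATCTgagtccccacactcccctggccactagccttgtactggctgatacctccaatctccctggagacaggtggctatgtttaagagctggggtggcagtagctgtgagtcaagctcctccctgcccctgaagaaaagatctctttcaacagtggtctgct
Epb42, chr2:121036878-121037127, minus strand: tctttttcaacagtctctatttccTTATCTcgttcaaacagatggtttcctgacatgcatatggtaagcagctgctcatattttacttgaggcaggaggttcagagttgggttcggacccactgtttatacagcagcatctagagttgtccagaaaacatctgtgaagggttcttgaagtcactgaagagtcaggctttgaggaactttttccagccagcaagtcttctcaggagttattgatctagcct
Hba-x, chr11:32276350-32276599, plus strand: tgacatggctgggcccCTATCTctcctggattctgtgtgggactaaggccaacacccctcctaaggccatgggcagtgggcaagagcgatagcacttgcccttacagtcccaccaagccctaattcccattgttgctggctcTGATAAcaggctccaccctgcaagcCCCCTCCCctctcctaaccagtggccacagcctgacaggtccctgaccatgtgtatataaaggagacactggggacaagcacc
The Alas2 window held 1 GATA word and 4 overlapping or adjoining CACCC words, and the Hba-x window held 2 GATA words and 1 CACCC word. The Trim10 and Epb42 windows held 1 GATA word each and no CACCC word. Promoters of 14365 genes on the array were matched. A GATA word stood in 28.7% of the promoters of rises over 4 (79 of 275), in 20.8% of those of all called rises and in 15.1% of those of called falls, against 20.3% over all genes. A CACCC word stood in 61.1% of the promoters of rises over 4, in 65.7% of those of called rises and in 68.8% of those of called falls, against 59.4% over all genes. The median GC content of these 250 bases was 55.2% for rises over 4, 58.8% for called rises and 60.8% for called falls, against 57.6% over all genes. These shares are descriptions, and a word in the window is not evidence of binding.

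Globin genes were among the largest rises. Of 6 globin genes with a probe set of their own, 4 rose and 2, Hba-a1 and Hba-a2, were not called. The list's median change was 4.59, against 0.13 over all genes. Hbb-bh1, an embryonic beta-like globin, read 15.33 and 14.16 in R5, against 6.22 and 8.10 in R1, and rose by 7.58 ± 0.70 (adjusted p = 8.78e-05). Its R5 and R1 arrays were far apart, and the gene was stable. Hbb-y, the embryonic epsilon-like globin, read 16.51 and 15.30 in R5, against 11.60 and 12.61 in R1. Hba-x, the embryonic zeta globin, read 16.26 and 12.97 in R5, against 7.85 and 10.60 in R1. Both embryonic genes were lower on R5 replicate 2 than on replicate 1, and both lost their calls when R5 replicate 1, R5 replicate 2 or either R1 array was left out (adjusted p up to 0.197 for Hbb-y and 0.253 for Hba-x).

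Adult globins were bright in R1 already. The adult alpha globin genes Hba-a1 and Hba-a2 share 3 probe sets, whose levels in R5 lay between 16.28 and 16.71, against 10.56 to 14.67 in R1. Their changes were 1.91 ± 0.37, 2.20 ± 0.41 and 4.16 ± 0.95 (adjusted p = 0.00940, 0.00676 and 0.0204). A probe set shared by the adult beta globins read 15.90 and 16.08 in R5, against 13.37 and 14.51 in R1, a change of 2.05 ± 0.44 (adjusted p = 0.0156). Near-identical copies cannot be told apart by these probe sets. The probe sets assigned to 1 alpha gene alone were far dimmer: Hba-a1 read 7.12 and 4.57 in R5, against 4.63 and 4.87 in R1, and Hba-a2 read 8.20 and 8.94 in R5, against 6.64 and 7.68 in R1. The probe set assigned to Hbb-b2 alone changed by 7.57 ± 1.19, but another probe set of that gene had the opposite sign, so the size for Hbb-b2 is uncertain.

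Heme synthesis genes rose together. Of 8 measured genes of the pathway 7 rose, with a list median of 3.85, and 6 of the 7 were stable. Fech, ferrochelatase, which puts iron into the ring in the last step, read 16.39 and 16.85 in R5, against 11.14 and 12.06 in R1, and rose by 5.02 ± 0.44 (adjusted p = 7.8e-05). Urod, uroporphyrinogen decarboxylase, read 16.03 and 16.82 in R5, against 12.51 and 12.59 in R1. Ppox, which oxidises protoporphyrinogen, rose by 3.89 ± 0.48. The exception was Alas1, the first enzyme of the pathway in non-erythroid tissues, which read 9.97 and 9.38 in R5, against 12.51 and 11.32 in R1. Alas1 changed by -2.23 ± 0.79 and did not pass the test (adjusted p = 0.0965).

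Of 24 genes of iron uptake and transport 12 rose and 1 fell, and 9 rises were stable. Slc25a37, mitoferrin 1, which carries iron into mitochondria, read 16.27 and 16.91 in R5, against 10.51 and 12.68 in R1. Slc25a39, another mitochondrial carrier, rose by 3.69 ± 0.37, Isca1, an assembly factor for iron-sulfur clusters, by 4.21 ± 0.44, and Abcb10, a mitochondrial transporter of erythroid cells, by 3.66 ± 0.54. For the transcripts of each of these genes the R5 and R1 arrays did not overlap, which also held for 61.6% of all genes. Flvcr1, which exports heme from the cell, went the other way, at 8.69 and 8.52 in R5 against 10.44 and 11.17 in R1 (change -2.20 ± 0.51, adjusted p = 0.0228). A second Flvcr1 probe set had the opposite sign, and the call was lost without R5 replicate 2 or either R1 array (adjusted p up to 0.128).

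The membrane and its skeleton gave the longest list of rises. Of 29 genes 23 rose and none fell, with a median change of 3.52, and 16 of the rises were stable. Epb42, protein 4.2, which ties band 3 to the skeleton, read 13.84 and 15.46 in R5, against 6.23 and 9.05 in R1. Dmtn, dematin, which bundles actin at the junctions of the skeleton, read 14.07 and 14.62 in R5, against 7.61 and 8.16 in R1, and rose by 6.46 ± 0.57 (adjusted p = 7.8e-05). Rhd, the mouse Rh blood group protein, read 15.08 and 15.86 in R5, against 9.38 and 10.15 in R1. In all of these genes the R5 arrays were at least 4 log2 units above the higher R1 array. Slc4a1 rose by 6.36 ± 1.20 (adjusted p = 0.00792), with R1 replicate 2 almost 4 units above R1 replicate 1. Its call was lost without R1 replicate 1 or R5 replicate 2 (adjusted p up to 0.0824).

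**Figure D2:**
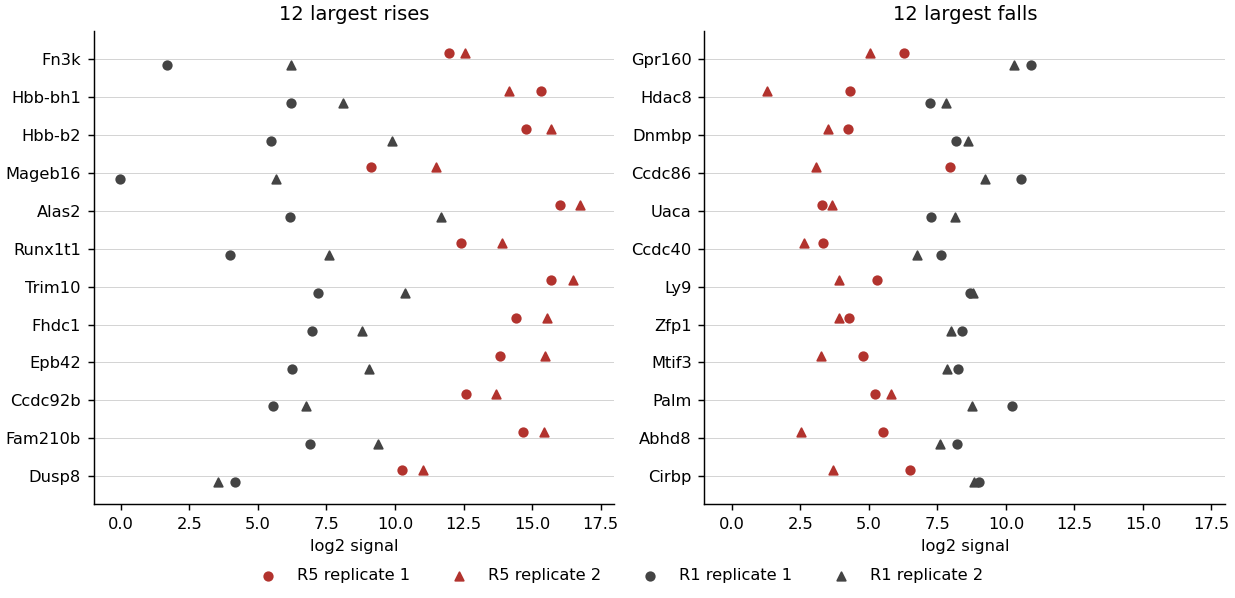
Log2 signal (horizontal axis) of the 12 largest called rises (left) and the 12 largest called falls (right) on each R5 array (red) and R1 array (grey); circles are replicate 1 and triangles replicate 2. Among the rises R1 replicate 2 is mostly above R1 replicate 1, as for Alas2 (11.69 against 6.17), and among the falls the R5 points mostly lie below the array median.

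Of 32 transcription factors of the erythroid programme 13 rose and 3 fell, and 10 rises were stable. Sox6, which silences embryonic globins and promotes maturation, read 12.71 and 14.24 in R5, against 6.27 and 7.57 in R1, and rose by 6.55 ± 0.72 (adjusted p = 0.00022). Hemgn, hemogen, an erythroid nuclear protein, rose by 4.97 ± 0.58. Foxo3, a factor of stress defence and autophagy, read 14.88 and 15.46 in R5, against 10.88 and 10.51 in R1, and rose by 4.47 ± 0.35 (adjusted p = 6.31e-05). E2f2, which acts in cell cycle exit of erythroblasts, rose by 3.99 ± 0.60. Hipk2, a nuclear kinase and cofactor of transcription, read 14.27 and 14.87 in R5, against 11.04 and 11.33 in R1. Hipk2 was 10.4-fold higher in R5 (3.38 ± 0.44, adjusted p = 0.000653), 5 of its 7 other probe sets were also called higher, and it was stable.

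The factors that fell were Tcf3, Runx1 and Ldb1. Tcf3, the E protein that pairs with Tal1, read 8.89 and 9.14 in R5, against 10.52 and 10.88 in R1 (change -1.68 ± 0.37, adjusted p = 0.0165). Runx1, the factor of early blood formation, read 8.13 and 7.80 in R5, against 9.25 and 9.79 in R1, and 2 of its 5 other probe sets had the opposite sign. Tal1 itself read 14.12 and 14.83 in R5, against 11.33 and 10.43 in R1. Lmo2, a partner of Tal1, rose by 2.74 ± 0.43.

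Genes on the list of erythropoietin signalling did not move as a block. Of 26 genes on this list 5 rose and 3 fell, and the median change was -0.40. Bcl2l1, which encodes the survival protein Bcl-xL, read 13.36 and 14.59 in R5, against 9.32 and 10.26 in R1, and rose by 4.18 ± 0.48 (adjusted p = 0.000283). Pim1, a survival kinase, rose by 2.57 ± 0.51 and Cish, a feedback inhibitor of the receptor, by 2.50 ± 0.38. Socs3, another inhibitor, also rose, as did the receptor gene Epor, given above. The falls were Ptpn6, the phosphatase that ends receptor signals (10.21 and 9.49 in R5, against 12.39 and 12.69 in R1), Stat5b and Kit. Stat5b read 9.49 and 7.76 in R5, against 10.58 and 10.55 in R1. Of 26 other genes of the Bcl2, caspase and death receptor families 2 fell and none rose. The falls were Apaf1 and Casp9, which act together to start the caspase cascade, and neither was stable.

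Enzymes that attach ubiquitin, the tag for protein destruction, contributed many rises. Of 31 conjugating and ligating enzymes 15 rose and 1 fell, with a median of 2.05, and 14 of the rises were stable. Ube2o, which marks surplus proteins such as unassembled globin in reticulocytes, read 13.56 and 15.06 in R5, against 7.82 and 9.24 in R1, and rose by 5.78 ± 0.60 (adjusted p = 0.000158). Ube2l6, a conjugating enzyme, rose by 6.23 ± 0.82, and Fbxo30, a ligase subunit, by 5.27 ± 0.68. Of 38 proteasome subunits 2 rose (5.26%, against 6.39% over all genes) and 1 fell (2.63%, against 2.75%). The rises were the activators Psme3 (13.83 and 14.99 in R5, against 10.85 and 10.52 in R1) and Psme4, and the fall was Psmc4, a subunit of the base. The median change of the proteasome list was -0.30, with the opposite sign under 1 of 24 alternative settings.

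Autophagy genes were called higher in 14 of 32 cases and lower in 3. Ulk1, the kinase that starts autophagy, read 12.36 and 13.55 in R5, against 9.07 and 9.25 in R1, and rose by 3.80 ± 0.41 (adjusted p = 0.000206). Atg4a, a protease that processes the Atg8 proteins, rose by 4.91 ± 0.53, and Gabarapl2, one of those proteins, by 3.89 ± 0.41. Atg3, which couples Atg8 proteins to lipid, read 10.61 and 9.53 in R5, against 12.30 and 12.32 in R1. Of the 14 rises 6 were stable. Among 33 lysosome genes 4 rose and 5 fell. Ctsb, the protease cathepsin B, rose by 3.06 ± 0.40, whereas Ctsc, cathepsin C, changed by -2.89 ± 0.66 (adjusted p = 0.0207). The lysosomal proton pump had members on both sides, with Atp6v0a1 higher (3.15 ± 0.59) and Atp6v1h and Atp6v1a lower (-2.45 ± 0.43 and -1.59 ± 0.33). With the most variable probe set per gene in place of the brightest, Atp6v1h changed by 3.79.

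**Figure D3:**
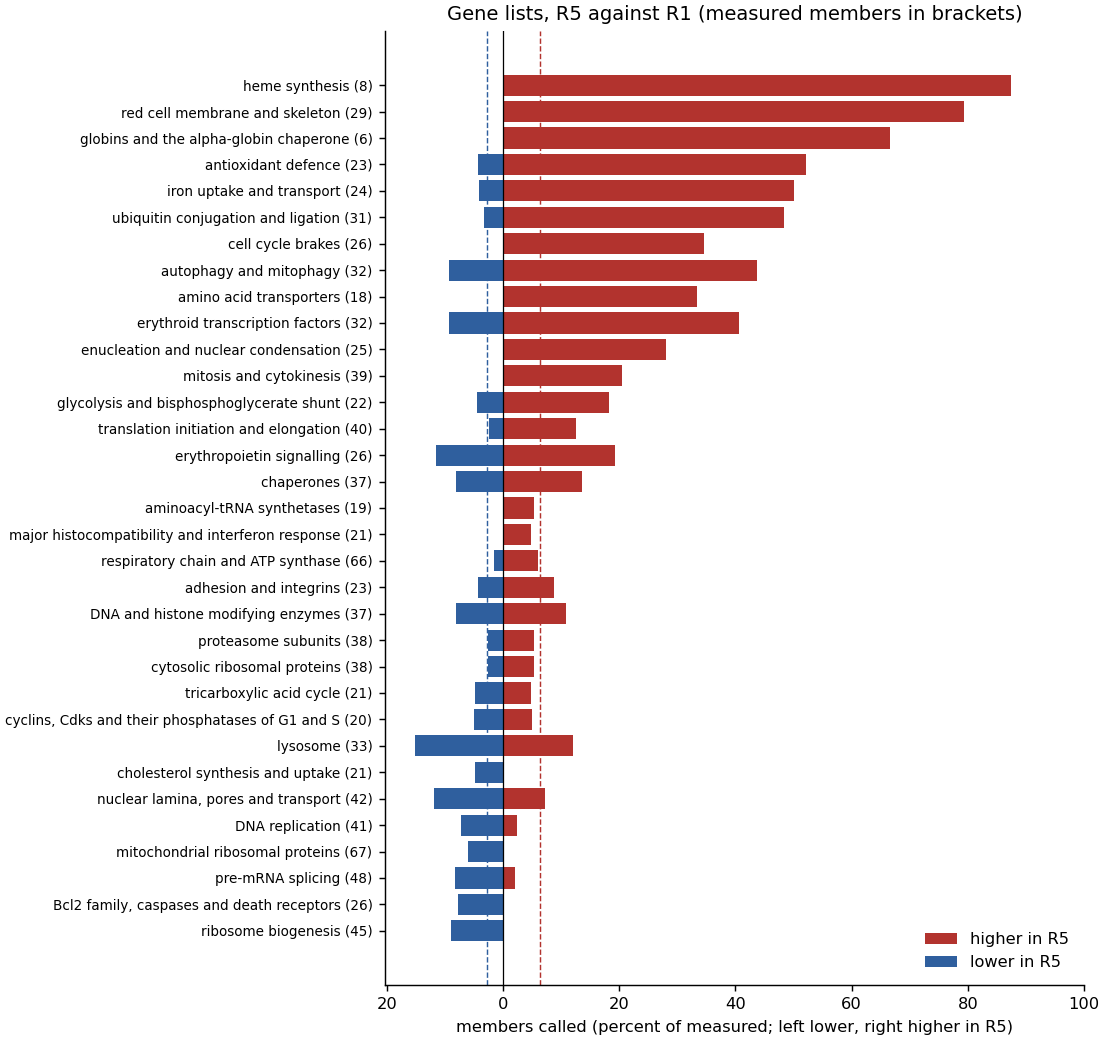
Share of the measured members of 33 gene lists that were called higher in R5 (red, right) or lower in R5 (blue, left), in percent; brackets give the measured members and dashed lines the shares over all genes (6.39% higher, 2.75% lower). Heme synthesis (87.5%) and the membrane list (79.3%) lead, and ribosome biogenesis and the mitochondrial ribosomal proteins have falls and no rises.

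R5 carried a mixed set of cell cycle transcripts. Of 39 genes of mitosis and cytokinesis 8 rose and none fell, with a median change of 0.34 (-0.25 with arrays centred on the median). Ube2c, which works with the anaphase-promoting complex, read 15.99 and 16.28 in R5, against 13.19 and 12.40 in R1, and rose by 3.34 ± 0.39 (adjusted p = 0.000309). Mki67, the proliferation marker Ki-67, read 15.73 and 16.23 in R5, against 13.57 and 13.76 in R1. Cdc25b, which activates Cdk1, rose by 4.38 ± 0.75, Pttg1, securin, by 2.51 ± 0.36, and Cit, citron kinase of cytokinesis, by 2.53 ± 0.42. Of the 8 rises 4 were stable.

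Genes of DNA synthesis lay on the other side. Of 41 replication genes 38 had a lower mean in R5 and the median change was -0.89, against -0.52 over all genes bright on all 4 arrays. Of the 41 genes 3 were called lower and 1 higher. Mcm3, a subunit of the replicative helicase, read 11.18 and 10.46 in R5, against 13.07 and 12.78 in R1 (change -2.10 ± 0.37, adjusted p = 0.00467). Rfc1, which loads the sliding clamp, changed by -2.03 ± 0.46. The rise was Rrm2, the small subunit of ribonucleotide reductase, at 14.65 and 15.02 in R5 against 13.16 and 13.36 in R1. None of the 3 replication falls was stable. Without R5 replicate 1, 23 of the 41 genes were called lower, and without R5 replicate 2, 1 was.

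Of 26 brakes on the cell cycle 9 rose and none fell. Of the rises 2 were stable, Gadd45a and Ccndbp1, and without R1 replicate 1 or R5 replicate 2 the list had 2 rises. Gadd45a, a stress-induced arrest protein, read 13.27 and 14.67 in R5, against 8.91 and 10.41 in R1. Mxd1, which opposes Myc, rose by 4.04 ± 0.71, and Cdkn1b, the inhibitor p27, by 2.90 ± 0.69 (adjusted p = 0.0246). These 3 genes were all higher on R5 replicate 2 than on replicate 1. A separate list held 20 genes of the cyclins, Cdks and their phosphatases of G1 and S. Of these 1 rose (5%, against 6.39% over all genes) and 1 fell (5%, against 2.75%). Their median change was -0.81, and 15 of the 20 had a lower mean in R5. The rise was Tfdp2, a partner of the E2F factors, which read 13.96 and 15.60 in R5, against 8.86 and 9.79 in R1. Its relative Tfdp1 read 11.77 and 11.06 in R5, against 12.78 and 12.54 in R1. Both were called, Tfdp2 higher (5.45 ± 0.55) and Tfdp1 lower (-1.24 ± 0.34, adjusted p = 0.0447).

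Genes linked to nuclear condensation and enucleation rose in 7 of 25 cases. Tent5c, a poly(A) polymerase, read 15.66 and 16.40 in R5, against 8.38 and 11.74 in R1. Plek2, pleckstrin 2, which acts on the actin cytoskeleton of erythroblasts, read 11.25 and 12.02 in R5, against 5.67 and 5.93 in R1. It rose by 5.83 ± 0.43 (adjusted p = 5.66e-05), but was below the array median on both R1 arrays, so the size is uncertain. Xpo7, a nuclear export factor abundant in erythroblasts, rose by 4.41 ± 0.54, and 1 of its 7 other probe sets had the opposite sign. The fourth named rise of this list, Mst1, encodes a protein secreted by the liver. Among 42 genes of the lamina, pores and nuclear transport 3 rose and 5 fell. Lmna, lamin A/C, read 11.72 and 11.94 in R5, against 8.96 and 7.37 in R1. Nup188, a scaffold protein of the pore, read 8.22 and 4.93 in R5, against 10.35 and 9.15 in R1.

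Genes that build ribosomes had mostly lower means in R5, with few calls. Of 45 genes of ribosome biogenesis 44 had a lower mean in R5, the median change was -1.21, and 4 were called lower. The median of all genes bright on all 4 arrays was -0.52. Pes1, which is needed for the large ribosomal subunit, read 9.42 and 7.89 in R5, against 11.62 and 10.91 in R1 (change -2.61 ± 0.55, adjusted p = 0.0147). Nop58, a core protein of the complexes that methylate ribosomal RNA, changed by -2.12 ± 0.48. Of 67 mitochondrial ribosomal proteins 66 had a lower mean in R5, the median was -0.97, and 4 were called lower. Mrpl18 read 9.95 and 8.34 in R5, against 12.47 and 11.42 in R1 (change -2.80 ± 0.55, adjusted p = 0.0101). No fall in either list was stable. Without R5 replicate 1 there were 23 falls among the biogenesis genes and 30 among the mitochondrial ribosomal proteins, and R5 replicate 2 was the lower R5 array for each of these 3 genes. The mean level of the mitochondrial ribosomal proteins was 10.74 and 9.26 in R5, against 11.43 and 10.62 in R1.

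Of 38 cytosolic ribosomal proteins 2 rose (5.26%, against 6.39% over all genes) and 1 fell (2.63%, against 2.75%), with a median change of 0.42. The larger rise, Rps16, changed by 4.99 and was not stable. The other, Rps29, read 16.50 and 16.70 in R5, against 15.09 and 15.20 in R1. Its change of 1.45 ± 0.37 was -0.043 after quantile normalization. Rpl37 read 9.33 and 7.10 in R5, against 12.20 and 11.67 in R1, and its fall of -3.72 ± 0.61 (adjusted p = 0.00343) was stable. The list's median had the opposite sign under 3 of 24 alternative settings. Of 40 genes of translation 5 rose, 1 fell (Eif4a2, an RNA helicase of initiation) and 26 had a lower mean in R5, with a median of -0.49. Without R5 replicate 1, 15 of them were called lower. Eif2ak1, the heme-regulated kinase that slows globin translation when heme is short, read 14.18 and 15.67 in R5, against 10.36 and 10.47 in R1, and rose by 4.51 ± 0.46 (adjusted p = 0.000152). Pabpc1, the cytoplasmic poly(A)-binding protein, rose by 2.06 ± 0.35, and Eif5, an initiation factor, by 2.59 ± 0.41.

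RNA processing and chromatin genes had calls in both directions. Of 48 splicing genes 4 fell (8.33%, against 2.75% over all genes) and 1 rose (2.08%, against 6.39%). The median change was -0.60, and 35 of the 48 genes had a lower mean in R5. The rise was Rbm38, an RNA-binding protein of late erythroid splicing, at 14.56 and 15.48 in R5 against 11.48 and 11.39 in R1 (3.59 ± 0.37, adjusted p = 0.000169). The falls were Snrpf (-2.85 ± 0.58), Hnrnpu, Sf3b2 and Srsf2, of which the last 3 had other probe sets of opposite sign. Of 37 DNA and histone modifying enzymes 4 rose (10.8%, against 6.39% over all genes) and 3 fell (8.11%, against 2.75%). Their median change was -0.77, and 25 of the 37 had a lower mean in R5. Ezh1, which methylates histone H3 in the Polycomb complex, rose by 2.72 ± 0.50.

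Metabolic genes gave a few large rises. Of 22 genes of glycolysis and its branches 4 rose and 1 fell. Bpgm, which makes the bisphosphoglycerate that lowers the oxygen affinity of hemoglobin, read 14.91 and 16.35 in R5, against 9.11 and 10.89 in R1, and rose by 5.63 ± 0.59 (adjusted p = 0.000178). Slc2a1, the glucose transporter Glut1, read 16.32 and 16.70 in R5, against 11.63 and 12.25 in R1. The fall was Pgd of the pentose phosphate path, at 10.78 and 9.55 in R5 against 13.69 and 13.51 in R1. Pklr, the red cell pyruvate kinase, rose by 1.53 ± 0.40 through its brightest probe set but changed by -0.88 through its most variable one. Pklr read 10.27 and 9.85 in R5, against a mean of 12.25 in R3, where it was highest of the 5 stages; no gene was called between R5 and R3.

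Of 66 genes of the respiratory chain and ATP synthase 4 rose (6.06%, against 6.39% over all genes) and 1 fell (1.52%, against 2.75%). The median was -0.05, with the opposite sign under 2 of 24 alternative settings. The 4 rises were Cox6a1, Cox7a2, Atp5b and Cox6c, between 1.20 and 1.82, and no call of this list was stable. Pcx, pyruvate carboxylase, which feeds the tricarboxylic acid cycle, read 11.87 and 12.96 in R5, against 7.02 and 7.47 in R1, and rose by 5.17 ± 0.46. Of the 21 genes of that list 17 had a lower mean in R5, the median change was -1.03, and the calls were this rise and the fall of Me2, a malic enzyme (-1.47 ± 0.36). Of 18 amino acid transporters 6 rose, led by Slc6a9, the glycine transporter that supplies heme synthesis. Slc6a9 read 12.45 and 13.86 in R5, against 8.42 and 8.23 in R1, and rose by 4.83 ± 0.53 (adjusted p = 0.00022). Slc43a1, a transporter of large neutral amino acids, rose by 4.76 ± 0.56. The median of the transporter list was -0.15, with the opposite sign under 4 of 24 alternative settings.

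Antioxidant genes rose in 12 of 23 cases, with a median of 1.86, and 6 of these rises were stable. Prdx2, the peroxiredoxin of red cells, read 16.27 and 16.53 in R5, against 13.20 and 13.06 in R1, and rose by 3.26 ± 0.35 (adjusted p = 0.00019). Blvrb, biliverdin reductase B, read 14.65 and 15.27 in R5, against 11.22 and 10.95 in R1. Gclm, which supports glutathione synthesis, rose by 3.84 ± 0.42. Glrx, glutaredoxin, was the 1 fall, at 9.85 and 9.91 in R5 against 11.56 and 12.56 in R1. Of 37 chaperones 5 rose and 3 fell. The largest rises were the J-domain proteins Dnaja4 (5.76 ± 0.57), Dnajb2 (5.72 ± 0.54) and Dnajb4 (4.51 ± 0.41).

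The 12 largest falls were of genes that were dim in R5. They were Gpr160, Hdac8, Dnmbp, Ccdc86, Uaca, Ccdc40, Ly9, Zfp1, Mtif3, Palm, Abhd8 and Cirbp. Gpr160, an orphan receptor, read 6.30 and 5.05 in R5, against 10.93 and 10.31 in R1 (change -4.95 ± 1.32, adjusted p = 0.0415). Ly9, a receptor of the SLAM family on blood cells, read 5.31 and 3.92 in R5, against 8.69 and 8.82 in R1. Cirbp, a cold-inducible RNA-binding protein, read 6.51 and 3.68 in R5, against 9.02 and 8.85 in R1. Of the 12 genes 11 were below the array median on both R5 arrays, so that the size of the fall is uncertain. Mtif3, a mitochondrial initiation factor of translation, was the 1 stable fall among them, at 4.77 and 3.25 in R5 against 8.25 and 7.86 in R1 (change -4.05 ± 0.61, adjusted p = 0.0019).

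Markers of other cells of the fetal liver were measured because each array holds a sorted population. In such bulk samples, fewer cells of a type and less RNA per cell cannot be told apart. Hepatocyte genes were higher in R5: 16 of 22 rose, none fell, all 22 had a higher mean in R5, and the median change was 2.95. Alb, albumin, read 14.56 and 16.22 in R5, against 12.018 and 10.998 in R1, and rose by 3.88 ± 0.53 (adjusted p = 0.000953). Afp, alpha-fetoprotein, read 15.18 and 16.41 in R5, against 12.66 and 13.71 in R1. Apoa2, an apolipoprotein of the liver, read 12.45 and 13.79 in R5, against 9.19 and 8.85 in R1. In each of these genes both R5 arrays stood above both R1 arrays, and R5 replicate 2 was the highest. The R5 and R1 arrays also lay apart for 61.6% of all genes.

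The mean level of the hepatocyte list was 10.03 and 11.45 in R5, against 8.05 and 7.57 in R1. In the stages between it lay from 6.10 to 6.90 in R2 and from 9.33 to 10.26 in R3, and it was 10.23 in R4. Alb and Afp, which define hepatocytes, were above the array median on both R5 and both R1 arrays. Of the 16 rises 6 were stable, and 6 to 17 genes were called when 1 array was left out, with 6 without R5 replicate 2. Endothelial and stromal genes rose in 6 of 24 cases (25%, against 6.39% over all genes). The rises were led by Reln (11.20 and 11.85 in R5, against 6.48 and 8.57 in R1) and Cxcl12. Cdh5 of endothelium and Col1a1 of stroma changed by 1.25 ± 0.68 and 1.63 ± 1.04. Neither passed the test (adjusted p = 0.246 and 0.317), and both were below the array median on both R1 arrays. Of the 24 genes 17 had a higher mean in R5 and 7 a lower one, with a median change of 1.23. With R1 replicate 1 left out, 1 of these 24 genes was called. The part of hepatocyte and stromal RNA in the rises of other genes was not tested.

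Of 24 progenitor markers 20 had a lower mean in R5 and 4 a higher one, with a median change of -1.22. The median from R1 was lower in the stages between, at -1.80 in R2, -2.90 in R3 and -1.66 in R4. The mean level of the list was 9.59 and 8.39 in R5, against 9.94 and 9.85 in R1. Kit, Gfi1 and Runx1 fell, and Tal1 and Lmo2, which erythroid cells also use, rose. Kit, the receptor for stem cell factor, read 10.58 and 8.96 in R5, against 11.87 and 11.25 in R1 (change -1.79 ± 0.47, adjusted p = 0.0388). Gfi1, a repressor of early blood cells, read 6.80 and 6.54 in R5, against 10.86 and 9.46 in R1. Cd34 read 11.17 and 8.11 in R5, against 12.50 and 11.32 in R1, and did not pass the test (adjusted p = 0.252).

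Among 22 macrophage, 18 granulocyte and 22 lymphocyte markers no gene was called, with 6, 4 and 4 genes at an unadjusted p under 0.05. The granulocyte markers were bright in both stages, and 15 of the 18 had a lower mean in R5 (median change -1.19). Elane, neutrophil elastase, read 9.80 and 10.19 in R5, against 13.85 and 11.53 in R1. S100a8, a calcium-binding protein of neutrophils, read 16.08 and 16.60 in R5, against 15.13 and 15.34 in R1, and Mpo, myeloperoxidase, read 14.59 and 12.69 in R5, against 14.99 and 14.03 in R1. The mean of the granulocyte list was 11.54 and 11.80 in R5, against 12.30 and 13.20 in R1. Of the macrophage markers 15 of 22 had a higher mean in R5, with a median change of 0.92. C1qa, a complement protein made by macrophages, read 7.38 and 8.40 in R5, against 5.28 and 7.88 in R1. Csf1r, the receptor that defines macrophages, read 12.53 and 11.48 in R5, against 13.00 and 13.27 in R1. The mean of the macrophage list was 8.82 and 9.08 in R5, against 7.72 and 9.05 in R1. Of 18 megakaryocyte and platelet markers 2 rose (11.1%, against 6.39% over all genes). These were Ppbp and Tubb1, by 2.45 ± 0.56 and 2.06 ± 0.51. The median change of this list was 0.03, with 10 members higher in mean in R5 and 8 lower. Pf4 and Itga2b, which define megakaryocytes, changed by 0.72 ± 0.73 and 0.05 ± 0.45. Neither passed the test (adjusted p = 0.533 and 0.958).

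**Figure D4:**
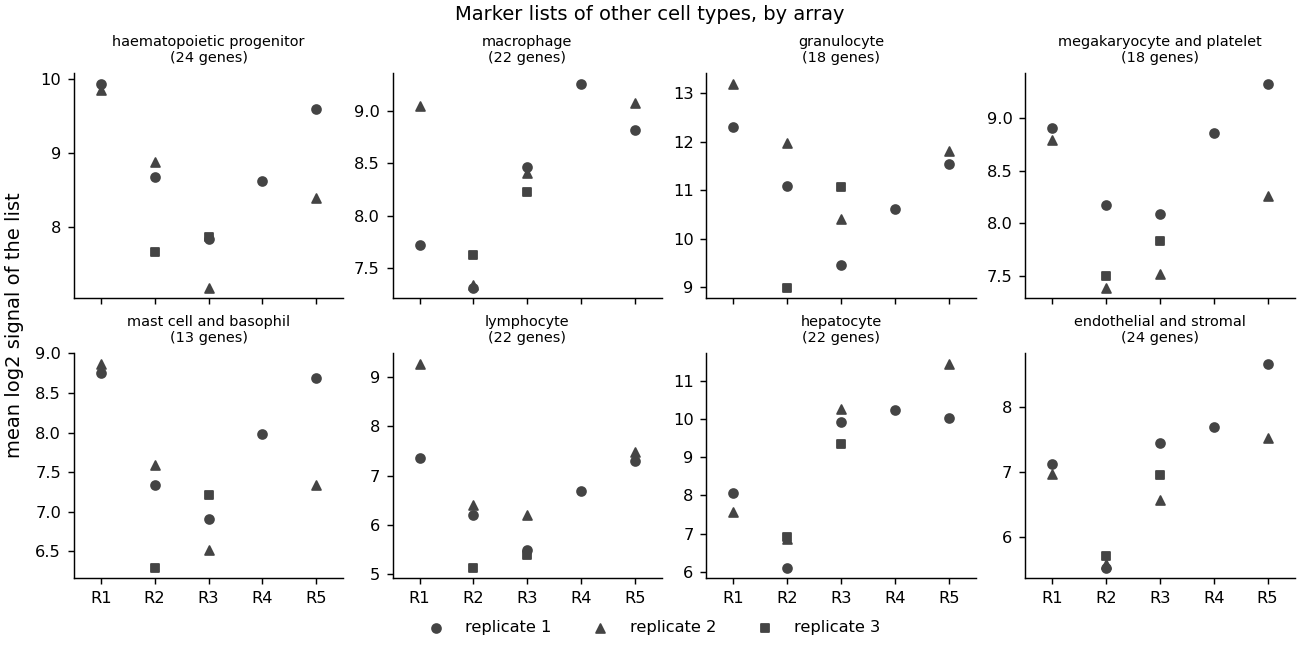
Mean log2 signal of 8 marker lists (panels, number of genes in brackets) on each of the 11 arrays, by stage from R1 to R5; marker shapes give the replicate number and each panel has its own vertical axis. The hepatocyte list stands at 10.03 and 11.45 in R5, against 8.05 and 7.57 in R1. The granulocyte list stands at 11.54 and 11.80 in R5, against 12.30 and 13.20 in R1. In between it lies from 8.98 to 11.97 in R2 and from 9.45 to 11.06 in R3.

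Most of the change between the ends had taken place by R3. The median called rise had covered 11.9% of its final change in R2, 75.4% in R3 and 84.7% in R4, which had 1 array. The median called fall had covered 4.46% in R2, 71.6% in R3 and 72.3% in R4. R3 lay between the ends for 985 of the 1162 rises and beyond R5 for 175. Between R3 and R1 2824 genes were called, and between R5 and R3 none were, although 2852 had an unadjusted p under 0.05 in limma's test of R5 against R3. These comparisons share the R3 arrays and, with the comparison of the ends, the R5 or R1 arrays.

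Lists differed in their path. The median of the heme list stood 1.48 above R1 in R2, 4.01 in R3, 3.81 in R4 and 3.85 in R5. The globin list stood at -0.48 in R2, 2.70 in R3, 5.39 in R4 and 4.59 in R5. The medians of the replication list were 0.51 in R2, 0.75 in R3, -0.02 in R4 and -0.89 in R5. Those of the mitosis list were 0.28 in R2, 1.16 in R3, 0.75 in R4 and 0.34 in R5. No gene (0%) was called as a peak or a trough at R3 by the adjusted test, whereas 361 peaks and 723 troughs passed at an unadjusted p under 0.05.

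**Figure D5:**
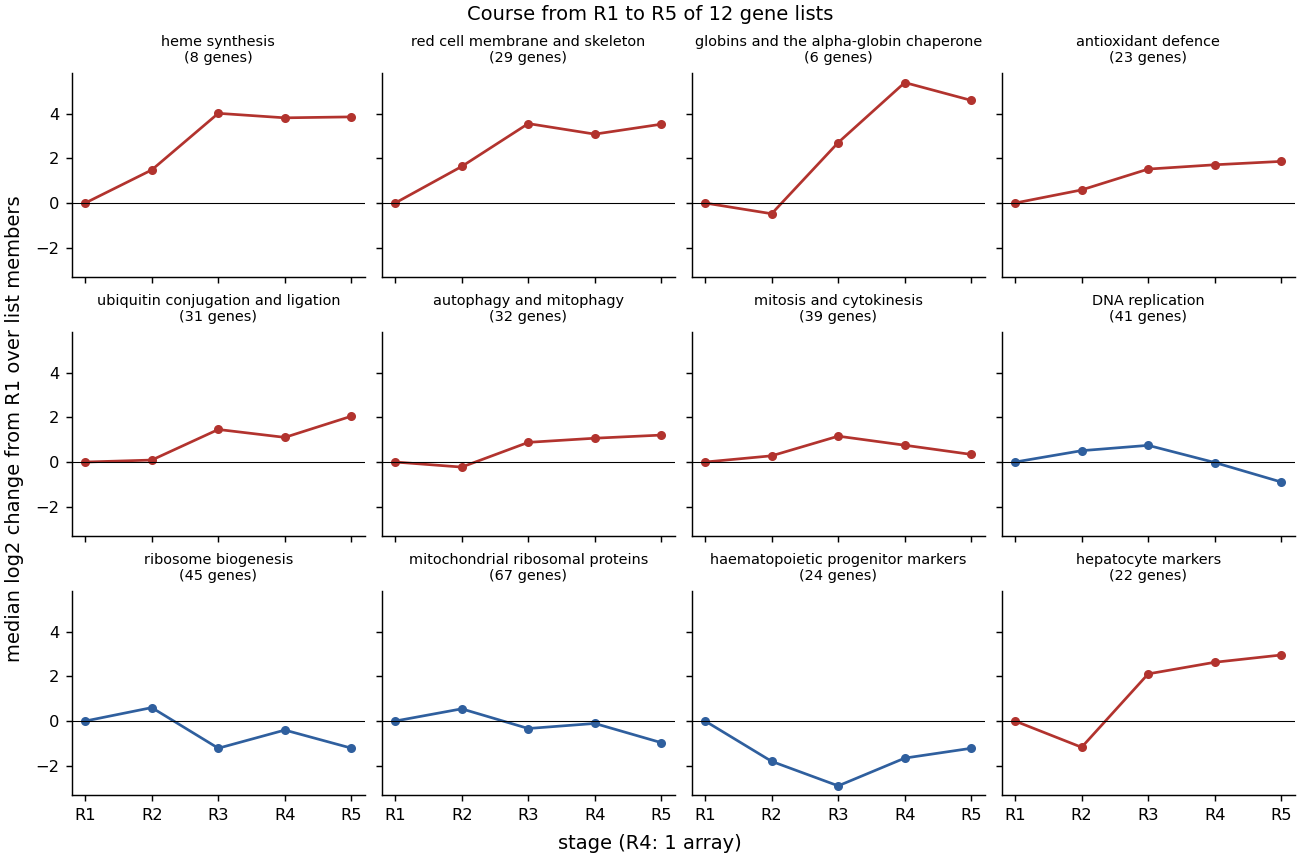
Median log2 change from R1 over the members of 12 gene lists (vertical axis) at the stages R1 to R5 (horizontal axis); R4 is 1 array. The heme list stands at 4.01 in R3 and 3.85 in R5, and the replication list at 0.75 in R3 and -0.89 in R5.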

How the data were processed

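The series holds 11 arrays of sorted fetal liver cells. The authors deposited a table of linear signal intensity per probe set, made with MAS5 per the submitters' processing notes, and each array in it has the same trimmed mean. The authors also deposited a table of log2 stage means with p-values from tests against R2. The differences of its R5 and R1 means were within 0.00996 of those computed here, and its p-values were not used. Per the labels, the RNA was labelled with a fluorescent dye, whereas the probe set names are those of a short-oligonucleotide array, so the labelling is not settled here.

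The intensity was taken to log2 with no further scaling or floor. All 45037 non-control probe sets of all 11 arrays entered 1 linear model with a mean per stage (limma 3.58.1 in R 4.3.3, lmFit and eBayes with an intensity trend, 6 residual degrees of freedom), since 2 arrays a stage give little information on the spread. P-values were adjusted over all probe sets and called under 0.05. Of the probe sets 34945 name 1 gene, 932 several and 9160 none in the platform annotation. A gene was read through the probe set of highest mean among those naming it alone. Of 970 called genes with further probe sets, 198 had one of opposite sign. The number of arrays limits the precision. The script was tested on simulated data.

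The members and lists were chosen with earlier results of these data known. Named genes were the 12 largest called rises and 12 largest called falls that were at or above the array median in the higher stage, without unnamed transcripts, up to 4 called members per list with up to 2 of the opposite direction, Tfrc and Hipk2, and fixed cell markers. Mki67, Alas1, Ldb1 and Socs3 were added after their values were seen. List members are counted, with no test of a list. The replicate deviations of R5 and R1 arrays numbered 1 correlated weakly (r = 0.15), and the labels do not settle whether equal numbers share an extraction date. The alternatives were another centring, quantile normalization, other variance models, filters on dim probe sets, a floor, a pseudocount, another probe set per gene, the replicate block, array weights, R5 and R1 arrays alone, and each array left out. Promoters are from RefSeq.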

Additional observations from a re-analysis of the deposited data

How the results depend on the processing

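The count of 1663 called genes, with 69.9% of them higher in R5, moved with several settings. It was 3508 (23.6% higher) with arrays centred on the median, 839 (93.3%) without the intensity trend, 2645 with a pseudocount of 50, 1038 (77.6%) with array weights and 355 (95.2%) with the R5 and R1 arrays alone. With the replicate number as a block, the replicate block called 3123 genes (51.0% higher) over all arrays and 3943 (43.9%) over the arrays numbered 1 and 2. The share higher was 63.2% and 60.8% without dim probe sets (all, and 1 per gene) and 66.5% with the most variable probe set of each gene. Leaving out 1 array gave 459 to 3426 calls, of which 39.0% to 92.5% were higher. The peak or trough genes at R3, of which none was called, numbered 63 with centring, 3 with quantile normalization, 1 with the most variable probe set, 88 with a floor of 16, 41 with the pseudocount, 7 and 191 with the replicate block, and 0 to 39 with 1 array left out. The cause of these shifts was not tested.

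Of 4054 alternative values of named genes 3316 kept their direction and their call, 731 kept the direction and lost the call, and 7 reversed. Rps29 was -0.043 after quantile normalization. With the most variable probe set, Atp6v1h changed by 3.79, Hnrnpu by 0.85, Ipo5 by 0.33, Pklr by -0.88, Pola2 by 1.95 and Setd7 by 2.59. Of 984 alternative list medians 19, in 9 lists, had the opposite sign, among them those of mitosis (-0.25 with centring), glycolysis (0.033 without R5 replicate 2, and -1.29, the main sign, without R5 replicate 1) and amino acid transporters (1.41 with the most variable probe set). In all, 114 medians moved by more than the spread between replicates, some of them among these 19, and 378 of 984 list counts moved by more than 1.5 times. Rises were steadier than falls under loss of an array, 392 of 1162 against 9 of 501. Signals below the array median set a limit on the size of 351 rises, dim on both R1 arrays, and of 61 falls, dim on both R5 arrays.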

Other observations

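Some called genes lie outside the groups described so far. Cd36, a scavenger receptor and fatty acid transporter, read 11.51 and 14.81 in R5, against 5.41 and 9.81 in R1, and rose by 5.55 ± 1.30 (adjusted p = 0.0238). Cd44, an adhesion receptor often used to stage erythroblasts, read 11.62 and 10.43 in R5, against 12.89 and 13.26 in R1 (change -2.05 ± 0.50, adjusted p = 0.0288). Cd82, a tetraspanin of the cell surface, rose by 2.94 ± 0.50. Under the alternative settings the change of Cd44 was as small as -0.16. Cd36, Cd44 and Cd82 were the 3 called genes of 23 on the adhesion list, whose median change was -1.35. Of that list 8.70% rose (6.39% over all genes) and 4.35% fell (2.75% over all genes). Of 21 genes of antigen presentation and the interferon response 1 rose (4.76%, against 6.39% over all genes). It was Ifit1, which read 8.24 and 9.48 in R5, against 5.23 and 5.91 in R1. The median change of this list was -0.79, and 17 of its 21 genes had a lower mean in R5. Of 21 genes of cholesterol synthesis and uptake 1 fell (4.76%, against 2.75% over all genes). It was Msmo1, a sterol oxidase (8.20 and 7.59 in R5, against 9.60 and 9.78 in R1). Of 19 aminoacyl-tRNA synthetases 1 rose (5.26%, against 6.39% over all genes). It was Nars, which loads asparagine onto its tRNA, by 1.83 ± 0.35. Of 13 mast cell and basophil markers 1, Kit, fell (7.69%, against 2.75% over all genes). None of the called genes in this paragraph was stable.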
